A study of Mus musculus with 2 samples.

Results

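The proteasome genes described here are the 46 rows of the gene table whose symbol starts with Psma, Psmb, Psmc, Psmd, Psme or Psmf followed by a digit, without pseudogene symbols, out of 54532 gene rows. RNA was sequenced from CD4-positive effector T cells carrying the transgenic BDC-2.5 receptor, which recognises an antigen of pancreatic beta cells. The cells were activated and then given to NOD.scid mice, which have no mature lymphocytes of the T and B lineages. Some hosts were injected intravenously with 2.5HIP-PLG at 1.75 mg, 1 day after receiving the cells; these are nanoparticles that carry a hybrid insulin peptide recognised by this receptor. The other hosts were left untreated. Cells negative for the GFP reporter of Foxp3 were sorted from spleen and lymph nodes on day 6, and the cells of 4 mice were pooled into 1 library for each group. Host ages are not given in the labels, and the transgenic receptor is shared by both groups, so all values describe cells of one specificity. The submitters asked how tolerance is induced in these cells.

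The proteasome is the protease that degrades proteins tagged with ubiquitin. Its barrel-shaped core particle is made of outer alpha rings, which gate the entry, and inner beta rings, in which the beta 1, beta 2 and beta 5 places cut peptide bonds. A regulatory particle of ATPases, a base and a lid binds the ubiquitin chain, removes it and unfolds the substrate. In lymphocytes, and under interferon gamma in many cells, the catalytic places are filled by the immunoproteasome subunits encoded by Psmb9, Psmb10 and Psmb8 in place of those encoded by Psmb6, Psmb7 and Psmb5, and the PA28 activator encoded by Psme1 and Psme2 can cap the core. Immunoproteasomes are known for the peptides they supply to MHC class I molecules.

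The library from 2.5HIP-PLG-treated mice, called treated below, held 22580648 counts and the untreated one 26036623, so that 1 count was worth 0.0443 and 0.0384 CPM (counts scaled to a library total of 1e6). Each ratio below is 2.5HIP-PLG over untreated, after scaling by the library total, with an exact 95% interval for counting error. With 1 library per group there was no replicate check and no p-value, and a ratio describes these 2 libraries. All 6 CD4 T cell markers were abundant, with a summed level of 5501 CPM in treated and 4534 CPM in untreated cells. The 29 markers of other cell types summed to 249 and 210.7 CPM, 126 and 98.8 CPM of which came from Pecam1, and the B cell gene Ms4a1 was at 0 in both. Which cells the Pecam1 counts came from was not tested. Erythroid markers summed to 40.4 and 41.9 CPM, and CD8 T cell markers to 13.5 and 10.8 CPM. A size rule asked for a ratio of at least 1.5 in either direction with an interval that excludes 1. Of the 29 markers, 20 were measured (a count sum of at least 20), and by this rule 8 were higher and 3 lower. It called 5.15% of all 13902 measured genes higher and 9.7% lower, and 0 of the 6 CD4 T cell markers. Mast cell and basophil markers summed to 15.9 and 3.46 CPM, with all 3 higher (Cpa3, Mcpt8 and Prss34). Neutrophil markers summed to 12.8 and 3.19 CPM, with Mpo and Elane higher. The other neutrophil markers were too scarce to be measured, S100a8 with 10 and 8 counts and S100a9 with 10 and 9, so the list did not rise as a whole. Macrophage markers summed to 7.66 and 4.34 CPM, with Csf1r and Lyz2 higher. The other macrophage markers did not rise with them. Adgre1 had 19 and 33 counts in treated and untreated cells (0.664, 0.357 to 1.2), Cd14 had 3 and 3, and Fcgr1 had 0 and 3. The stromal gene Col1a1 was higher, at 1.73 and 0.538 CPM. Dendritic cell markers summed to 18.1 and 30.0 CPM, with Itgax lower, and NK cell markers to 12.7 and 17.5 CPM, with Klrb1c and Ncr1 lower. The CD4 T cell markers had a median log2 ratio of 0.34. The part of any of these markers' cells in the proteasome values was not tested. In bulk RNA, fewer cells of a type and less RNA per cell cannot be told apart.

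Sequence before a RefSeq start is shown for 5 of the catalytic subunit genes, without Psmb7, since the contrast between the constitutive and the immunoproteasome sets is the one the results turn on. Sequences are RefSeq's for GRCm38.p6, 5′ to 3′ on the gene's strand, and capitals mark the letters found by a search of both strands. The promoter table held 42 start sites for 39 of the 46 genes. The Psmb5 stretch (chr14:54618023-54618245, minus strand) and the Psmb6 stretch (chr11:70525107-70525356, plus strand) each held 1 match to the antioxidant response element TGACNNNGC, the element bound by the NRF1 protein of Nfe2l1. The match began 47 bases before the RefSeq start of Psmb5 and 9 bases before that of Psmb6. The Psmb10 stretch (chr8:105938445-105938642, minus strand) held none of the motifs searched. A short window of Psmb8 (chr17:34198088-34198116, plus strand) held a match to the gamma-activated sequence TTCNNNGAA and a window of Psmb9 (chr17:34187331-34187350, minus strand) held the reverse complement of CCAAT. Both windows precede a RefSeq start that lies inside the annotated span of the gene given below.
Psmb5: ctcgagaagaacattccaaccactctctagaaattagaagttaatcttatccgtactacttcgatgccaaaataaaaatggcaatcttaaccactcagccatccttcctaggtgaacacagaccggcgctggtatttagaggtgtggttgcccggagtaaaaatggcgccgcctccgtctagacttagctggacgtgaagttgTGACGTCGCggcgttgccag
Psmb6: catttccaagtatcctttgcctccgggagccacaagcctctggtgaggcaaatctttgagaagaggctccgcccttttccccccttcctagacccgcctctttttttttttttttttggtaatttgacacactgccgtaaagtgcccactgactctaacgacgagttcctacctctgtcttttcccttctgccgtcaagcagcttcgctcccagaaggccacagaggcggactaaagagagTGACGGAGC
Psmb10: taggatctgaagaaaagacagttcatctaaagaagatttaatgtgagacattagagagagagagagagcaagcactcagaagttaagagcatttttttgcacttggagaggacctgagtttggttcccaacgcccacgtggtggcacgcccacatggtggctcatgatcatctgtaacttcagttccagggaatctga
Psmb8: tcctccgctgTTCCCAGAAgatgcccccc
Psmb9: gcgcagccgctgATTGGaaa

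Within the 250 bases before a start, TGACNNNGC occurred at 5 of the 42 starts of proteasome genes (11.9%), those of Psmb5, Psmb6, Psmc6, Psmd12 and Psmd9, and at 10.2% of all 32851 starts. CCAAT occurred at 15 starts (35.7%) against 33.8% of all. The interferon-stimulated response element, here GAAA followed after 2 bases of any kind by another GAAA, occurred at 3 starts (7.14%), those of Psmb3, Psmd4 and Psmd9, against 2.98% of all, and TTCNNNGAA at 1 start (2.38%), that of Psmb8, against 7.02% of all. The matches are letters in a window and not measured binding sites.

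Of the 46 genes, 44 had a count sum of at least 20 and are called measured. The other 2 are the tissue-restricted core subunits. Psma8, the alpha subunit of male germ cells, had 1 count in treated cells and 0 in untreated cells, and Psmb11, the beta subunit of the thymic cortex, had 0 in both. A count of 0 allows up to 0.133 and 0.115 CPM in the 2 libraries. The measured genes spanned 377 counts for Psmc3ip to 20363 for Psmb8 over both libraries.

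None of the 44 measured genes differed by the size rule. Over all 13902 measured genes that rule called 5.15% higher and 9.7% lower. The proteasome genes lay close together and slightly above even, with ratios from 0.842 for Psme2b to 1.23 for Psmd10 and a median log2 ratio of 0.14 (a ratio of 1.1), against a median of -0.01 over all measured genes. Without regard to size, the whole interval was above 1 for 28 of the 44 and below 1 for 3, Psme2b, Psmd9 and Psmd4, and held 1 for 13. The same counting gave 24.3% above and 26.3% below over all measured genes.

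Precision grows with depth, so genes whose counts summed to at least 1000 are the nearer background. Among 7022 such genes, 34.5% had an interval above 1 and 28.8% below, 2.71% were higher and 2.86% lower by the size rule, and the median log2 ratio was 0.02. Their median count sum was 3115, and that of the proteasome genes was 4918. The log2 ratios of the proteasome genes had an SD of 0.12 over genes, counting error alone would give 0.05, and the abundant genes had an SD of 0.36, of which counting error would give 0.06. The proteasome genes' values were thus narrow in range but wider than counting error.

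**Figure D1:**
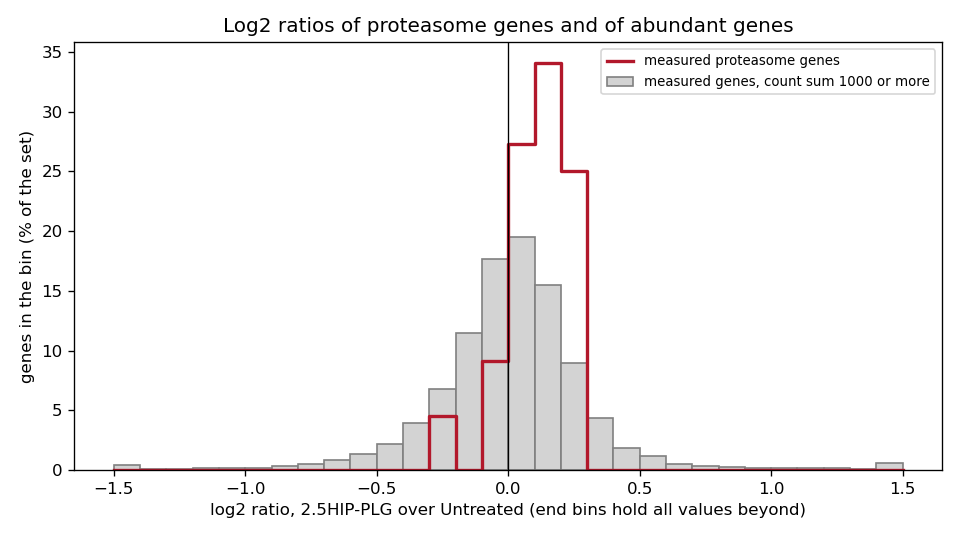
Share of genes (y axis, percent of the set) in each bin of log2 ratio, 2.5HIP-PLG over untreated (x axis), for the 44 measured proteasome genes (red line) and 7022 abundant genes (grey bars). The proteasome genes occupy bins from -0.3 to 0.3 and peak between 0.1 and 0.2, which holds 34.1% of them and 15.5% of the abundant genes.

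The catalytic immunoproteasome genes were abundant in both libraries. Psmb8, which encodes the beta 5i subunit (chromosome 17, 34197721 to 34201454, GRCm38), had 9695 counts (429 CPM) in treated cells and 10668 (409.7 CPM) in untreated cells, a ratio of 1.05 (1.02 to 1.08). Psmb9, which encodes beta 1i (chromosome 17, 34181987 to 34187764), had 4793 counts (212 CPM) and 4617 (177 CPM), a ratio of 1.2 (1.15 to 1.25). Psmb10, which encodes beta 2i (chromosome 8, 105935735 to 105938444), had 3175 counts (140.6 CPM) and 3079 (118 CPM), a ratio of 1.19 (1.13 to 1.25). All 3 were slightly higher in treated cells, but not equally. The ratio of Psmb9 exceeded that of Psmb8 by a factor of 1.14 (1.09 to 1.2) and that of Psmb10 did so by 1.13 (1.07 to 1.2), while Psmb9 and Psmb10 differed by a factor of 1.01 (0.944 to 1.07). The expected counts of Psmb8 and Psmb9, and those of the constitutive genes Psmb5 and Psmb7, were not whole, so some of their reads were divided with other genes. Annotated exon bases of Psmb8, Psmb5 and Psmb7 overlap those of Gm20496, Mir686 and Nek6.

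The constitutive catalytic genes were less abundant. Psmb5, which encodes beta 5 (chromosome 14, 54614119 to 54618022), had 1259 counts (55.8 CPM) in treated cells and 1384 (53.2 CPM) in untreated cells, a ratio of 1.05 (0.971 to 1.13). Psmb6, which encodes beta 1 (chromosome 11, 70525367 to 70527858), had 2631 counts (117 CPM) and 2701 (104 CPM), a ratio of 1.12 (1.06 to 1.19). Psmb7, which encodes beta 2 (chromosome 2, 38588036 to 38644087), had 2036 counts (90.2 CPM) and 2126 (81.7 CPM), a ratio of 1.1 (1.04 to 1.17). The interval of Psmb5 held 1 and those of Psmb6 and Psmb7 did not.

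Within each pair that fills the same place, the share of counts from the immunoproteasome gene does not depend on the scaling of the libraries. Psmb8 made up 88.5% of Psmb8 plus Psmb5 counts in treated cells (87.9 to 89.1 by an exact binomial interval) and 88.5% in untreated cells (87.9 to 89.1), an odds ratio of 0.999 (0.92 to 1.08). Psmb9 made up 64.6% of Psmb9 plus Psmb6 counts (63.5 to 65.6) and 63.1% (62.0 to 64.2), an odds ratio of 1.07 (0.996 to 1.14). Psmb10 made up 60.9% of Psmb10 plus Psmb7 counts (59.6 to 62.3) and 59.2% (57.8 to 60.5), an odds ratio of 1.08 (0.995 to 1.17). No pair's share differed between the libraries beyond counting error. The intervals of the odds ratio ran up to 1.08, 1.14 and 1.17 and down to 0.92, 0.996 and 0.995. They cover counting error in these libraries and do not bound a change with treatment. Over the 3 places together, the immunoproteasome genes made up 74.9% of counts (74.3 to 75.4) and 74.7% (74.2 to 75.3), an odds ratio of 1.01 (0.967 to 1.05).

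**Figure D2:**
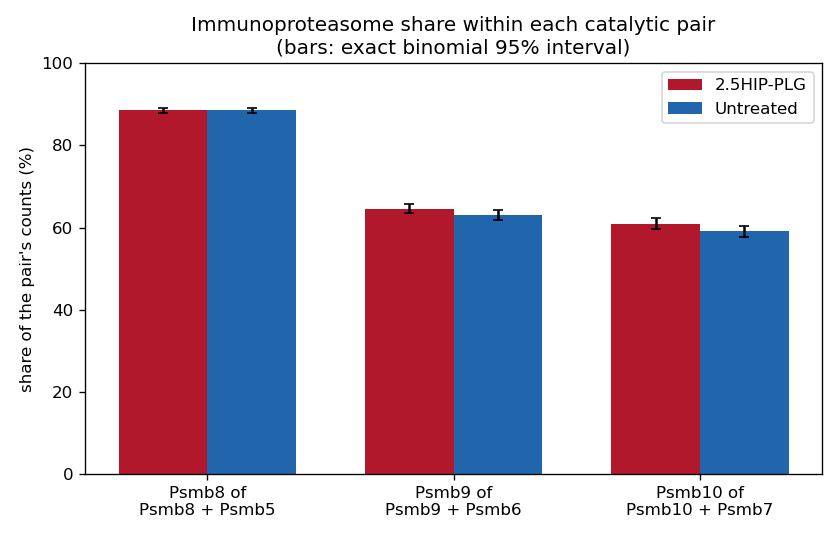
Share of the immunoproteasome gene in the counts of its pair (y axis, percent) for the beta 5, beta 1 and beta 2 places (x axis) in treated (red) and untreated (blue) cells, with exact binomial 95% intervals. The bars of each pair are nearly level, at 88.5% in both libraries for Psmb8 and within overlapping intervals for Psmb9 and Psmb10.

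Levels per length, in CPM per kilobase of merged exons, allow genes to be compared within a library. Psmb8 stood at 263.7 in treated cells and 251.7 in untreated cells, 4.25-fold and 4.26-fold above Psmb5. Psmb9 stood 1.08-fold and 1.01-fold above Psmb6, and Psmb10 1.38-fold and 1.28-fold above Psmb7. Per length the immunoproteasome gene was the higher of the pair at the beta 5 and beta 2 places in both libraries. At the beta 1 place it was higher in treated cells (interval 1.02 to 1.13 by counting error), and in untreated cells the interval held 1 (0.962 to 1.06). These intervals do not cover error in the exon lengths. The RefSeq start of Psmb9, at 34187330, lies inside the annotated span, which ends at 34187764. The order of Psmb9 and Psmb6 therefore rests on the length taken and is not settled by these intervals. Psmb8 was the highest of all the core and regulatory subunit genes in both libraries. Psmb9 stood at 157.0 and 131 and Psmb10 at 107 and 90.2. The 31 subunit genes of those particles outside the immunoproteasome catalytic class ranged from 26.6 to 146 in treated cells (median 67.9) and from 22.8 to 135 in untreated cells (median 66.8), with Psmd12, a lid subunit, lowest in both. With the longest coding transcript as length, an alternative added after seeing the data, the ATPase gene Psmc6 was lowest in both, at 31.3 and 30.6.

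**Figure D3:**
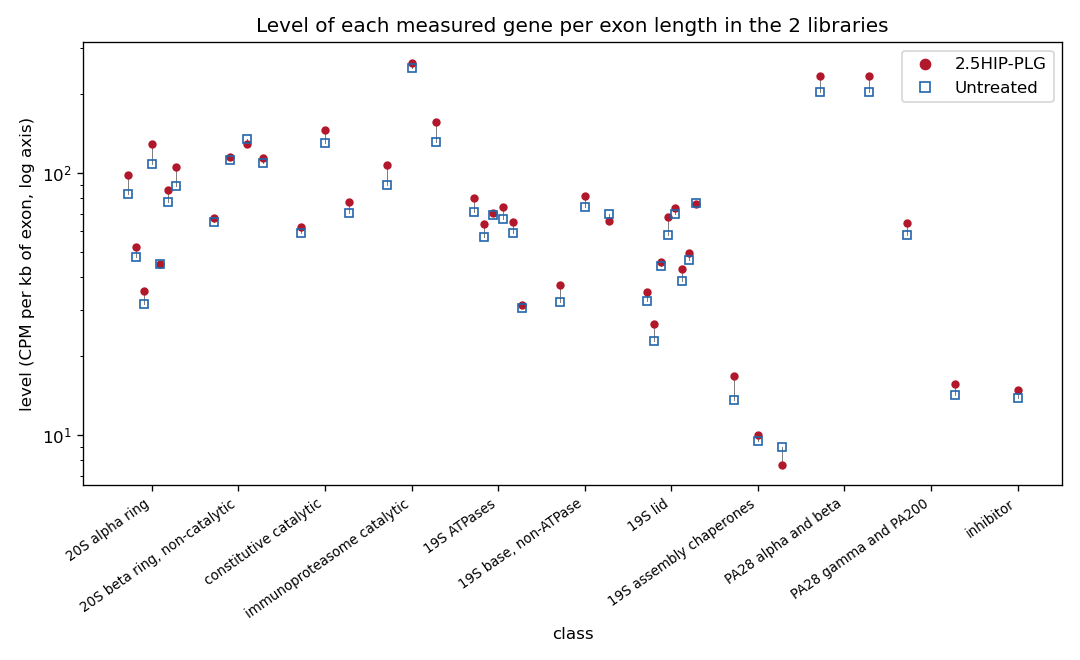
Level of each measured gene in CPM per kilobase of merged exons (y axis, log scale) by class (x axis), with red points for 2.5HIP-PLG, blue squares for untreated and a line joining the values of a gene. Psmb8 and the PA28 genes Psme1 and Psme2 stand at 204.0 or more in both libraries. The spread over all genes is far larger than the difference of any gene between libraries.

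The counts of intervals by class given from here on stand against 34.5% above 1 and 28.8% below 1 among abundant genes. The outer alpha ring lay above even as a group. Of its 7 genes, 6 had an interval above 1 and 0 below, with a median log2 ratio of 0.17, and their counts together gave 803 CPM in treated cells and 709 CPM in untreated cells (ratio 1.13, 1.11 to 1.16). Psma4 was the highest of the ring, with 3378 and 3293 counts in treated and untreated cells (1.18, 1.13 to 1.24), and Psma1 and Psma7 had ratios of 1.18 each. Psma5 was lowest, with 1252 and 1451 counts (0.995, 0.922 to 1.07). Psma2, Psma6 and Psma3 lay between them at 1.09, 1.11 and 1.12.

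The 4 non-catalytic beta genes, whose proteins complete the inner ring, had a summed level of 562 and 551 CPM (ratio 1.02, 0.996 to 1.04), and every one of their intervals held 1. These calls depend on the scaling, since the summed interval was 1.004 to 1.053 under TMM and 1.005 to 1.054 under DESeq2 size factors, both above 1. Under the same scalings the interval of Psmb4 lay above 1 (1.001 to 1.105 and 1.002 to 1.106), and under upper quartile scaling that of Psmb3 lay below 1 (0.889 to 0.995). Psmb4 was highest, with 3031 and 3350 counts (1.04, 0.993 to 1.1), and Psmb3 lowest, with 2221 and 2694 counts (0.951, 0.898 to 1.01). The summed interval of these beta genes lay wholly below that of the alpha genes, although both kinds of subunit go into the same particle.

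Among the 6 ATPases of the regulatory particle, Psmc1 to Psmc6, 4 had an interval above 1 and 0 below, and the summed ratio was 1.08 (1.06 to 1.11). Psmc1 was highest, with 2876 and 2948 counts (1.12, 1.07 to 1.18), and Psmc3 lowest, with 3254 and 3673 (1.02, 0.974 to 1.07). The 3 other base genes parted. Psmd1, a scaffold of the base, had 2619 and 2597 counts (1.16, 1.1 to 1.23), Psmd2 had 5452 and 5709 (1.1, 1.06 to 1.14), and Psmd4, a receptor for ubiquitin chains, had 2727 and 3338 (0.942, 0.895 to 0.991). Psmd4 was the only core or regulatory subunit gene whose interval lay below 1. With DESeq2 size factors its interval reached 1 (0.903 to 1.0), and with upper quartile scaling that of Psmb3 lay below 1 as well. The ratio of Psmd1 exceeded its ratio by a factor of 1.23 (1.15 to 1.33).

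In the lid, 6 of 8 genes had an interval above 1 and 0 below, and the summed ratio was 1.07 (1.05 to 1.09). Psmd14, the enzyme that cuts ubiquitin chains off the substrate, was highest, with 2364 and 2319 counts (1.18, 1.11 to 1.25), followed by Psmd12 at 1.17 (1.09 to 1.25). Psmd8 was lowest, with 3776 and 4411 counts (0.987, 0.945 to 1.03). The lid genes Psmd3, Psmd6, Psmd7, Psmd11 and Psmd13 had ratios between 1.03 and 1.11.

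Assembly chaperones of the regulatory particle carry Psmd symbols but leave the finished particle, and, the Psme2b copy aside, they held both ends of the range. Psmd10, encoding gankyrin, had 557 counts in treated cells and 522 in untreated cells (1.23, 1.09 to 1.39). Psmd9 had 451 and 609 (0.854, 0.754 to 0.966), and Psmd5 had 993 and 1087 (1.05, 0.966 to 1.15). Between Psmd9 and Psmd10 the ratios differed by a factor of 0.694 (0.583 to 0.826). These genes were scarce per length, at 7.69 to 16.8 CPM per kilobase in treated cells and 9.01 to 13.6 in untreated cells. Annotated exon bases of Psmd9 overlap the opposite-strand gene Gm26745, and strand use is not stated. The expected counts of Psmd9 were whole in both libraries, so they show no reads divided with another gene. Exon bases of other members overlap other genes too, among them Psma4, Psma5, Psmc3, Psmd1 and Psme1.

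The activator genes were above even. Psme1 and Psme2, which encode the alpha and beta subunits of PA28 and lie next to each other on chromosome 14 (55578123 to 55581529 and 55587441 to 55591113), had nearly equal ratios. Psme1 had 5885 and 5908 counts (1.15, 1.11 to 1.19), and Psme2 had 5169 and 5183 (1.15, 1.11 to 1.2), a factor of 0.999 apart (0.947 to 1.05). Per length they were nearly equal too, at 234.4 and 234.5 CPM per kilobase in treated cells and 204.1 and 204.0 in untreated cells. Psme3, the nuclear PA28 gamma, had 3864 and 4013 counts (1.11, 1.06 to 1.16), Psme4, which encodes the activator PA200, had 2286 and 2400 (1.1, 1.04 to 1.16), and Psmf1, encoding the regulator PI31, had 1337 and 1441 (1.07, 0.992 to 1.15).

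Only 2 measured genes found by symbol had no place in these classes. Psme2b is a close copy of Psme2 on chromosome 11 (48945354 to 48946190) whose 837 exon bases span the whole gene, so it has no intron. It had 482 and 660 counts (0.842, 0.747 to 0.948), from expected counts that were not whole, so some reads were divided with other genes. Annotated exon bases of Psme2b also overlap 9930111J21Rik1 on the same strand. Which gene shared its reads was not tested. Psme2 and Psme2b together had 5651 and 5843 counts (1.12, 1.08 to 1.16). Psmc3ip encodes a partner of meiotic recombinases and no proteasome subunit. It had 190 and 187 counts (1.17, 0.952 to 1.44).

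**Figure D4:**
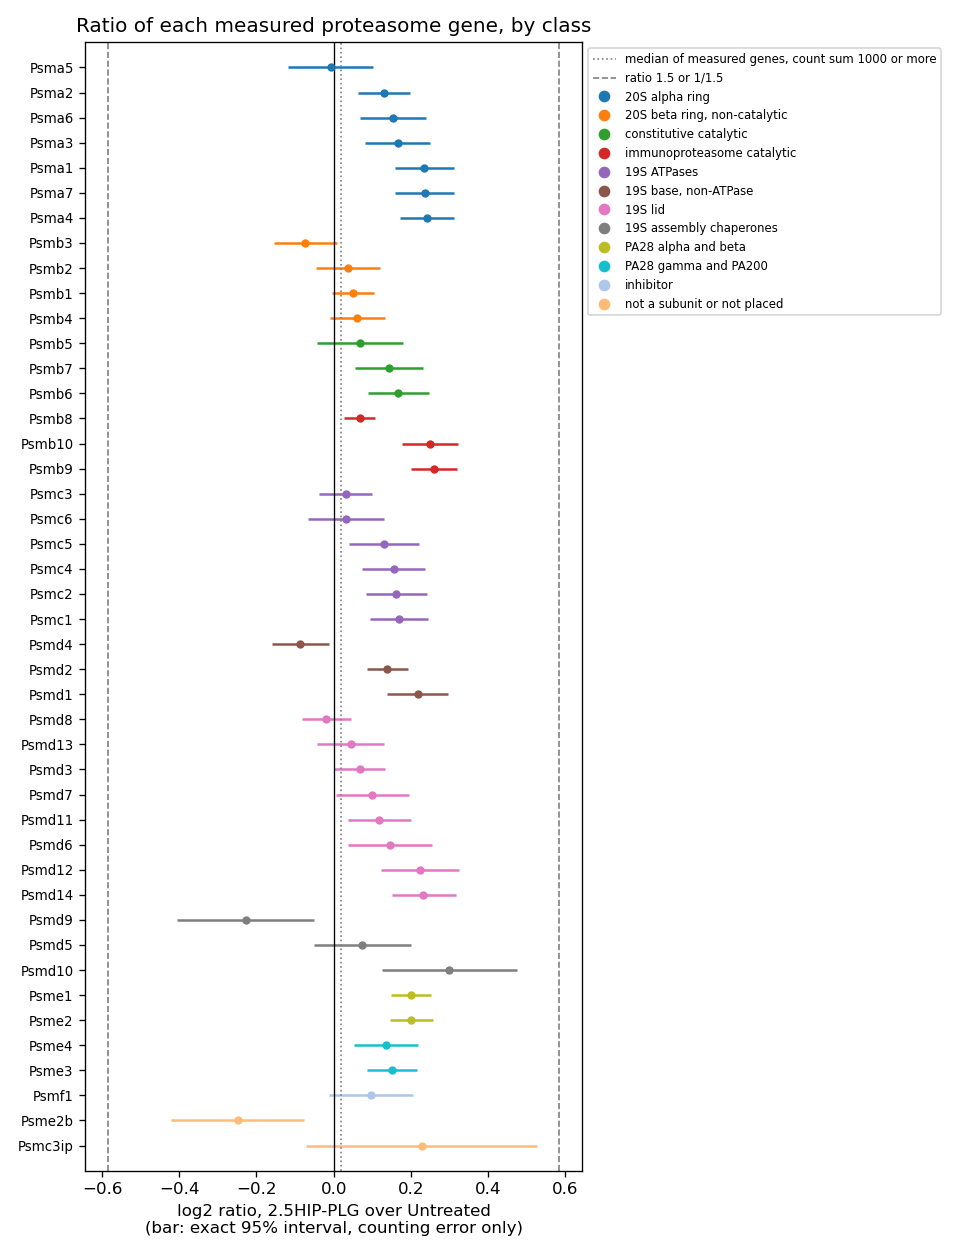
Log2 ratio of each of the 44 measured genes, 2.5HIP-PLG over untreated (x axis), ordered by class and ratio (y axis), with exact 95% intervals for counting error. Dashed lines mark ratios of 1.5 and its inverse, which no gene reaches, and most points lie right of the dotted line, the median log2 ratio of 0.02 of abundant genes.

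Other genes of the pathway, outside the Psm symbols, were compared from a list of 42 symbols, of which 39 matched and all 39 were measured. By the size rule 1 was higher and 1 lower. That rule called 5.15% of all measured genes higher and 9.7% lower. Among genes with a count sum of at least 1000 it called 2.71% and 2.86%, so the pathway counts are near that share. Without regard to size, 16 had an interval above 1 and 5 below, with a median log2 ratio of 0.065. The shares with an interval above and below 1 were 24.3% and 26.3% of all measured genes, and 34.5% and 28.8% of the abundant ones. Of the 5 chaperones that assemble the core, 1 had an interval above 1, Pomp, with 2155 and 2252 counts (1.1, 1.04 to 1.17), and Psmg1 had 366 and 411 counts (1.03, 0.889 to 1.18). Of 8 regulatory particle partners, 3 had an interval above 1 and 0 below. Adrm1, a ubiquitin receptor of the base like Psmd4, had 2297 and 2738 counts (0.967, 0.915 to 1.02). Of 6 ubiquitin shuttle genes, 2 had an interval above 1 and 0 below, and of 4 ubiquitin genes 0 above and 2 below.

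The gene called higher was Ngly1, the glycanase that activates the NRF1 protein, with 1821 counts in treated cells and 1357 in untreated cells (1.55, 1.44 to 1.66). Nfe2l1, which encodes NRF1, the factor that drives subunit genes when proteasome activity is short, had 2929 and 3065 counts (1.1, 1.05 to 1.16). Nfe2l2, the remaining gene of the 3 listed for transcriptional control, encodes the related factor NRF2 and had 723 and 1011 counts, with an interval below 1 (0.825, 0.749 to 0.908). The gene called lower was Ifngr1, the ligand-binding chain of the interferon gamma receptor, with 3485 and 7281 counts (1.81-fold lower; ratio 0.552, 0.53 to 0.575). Irf1, a factor that induces immunoproteasome genes, had 5601 and 5884 counts (1.1, 1.06 to 1.14). Ifng itself had 1947 and 2331 counts, a ratio of 0.963 (0.906 to 1.02). Of the other listed inducers, Nlrc5 had 9842 and 10625 counts (1.07, 1.04 to 1.1). Ifngr2 was scarce, with 49 and 77 counts and an interval that held 1 (0.734, 0.502 to 1.06). The ratio of Irf1, which acts downstream of the receptor, lay in the range of the subunit genes, and that of Ifngr1 lay below it. A link between these genes and the subunit genes was not tested.

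Psmb9 lies back to back with Tap1, a subunit of the peptide transporter for MHC class I, and 226 bases separate their RefSeq starts. Tap1 had 10326 counts in treated cells and 10058 in untreated cells (1.18, 1.15 to 1.22). Its ratio differed from that of Psmb9 by a factor of 0.989 (0.941 to 1.04) and exceeded that of the nearby Psmb8 by 1.13 (1.09 to 1.17). Annotated exon bases of Psmb9 and Tap1 overlap on opposite strands. Unless reads were counted by strand, which is not stated, part of their reads cannot be told apart. The expected counts of both genes were not whole, and which genes shared those reads was not tested. Of 8 genes of class I peptide supply, 6 had an interval above 1 and 1 below, against 34.5% and 28.8% of abundant genes.

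**Figure D5:**
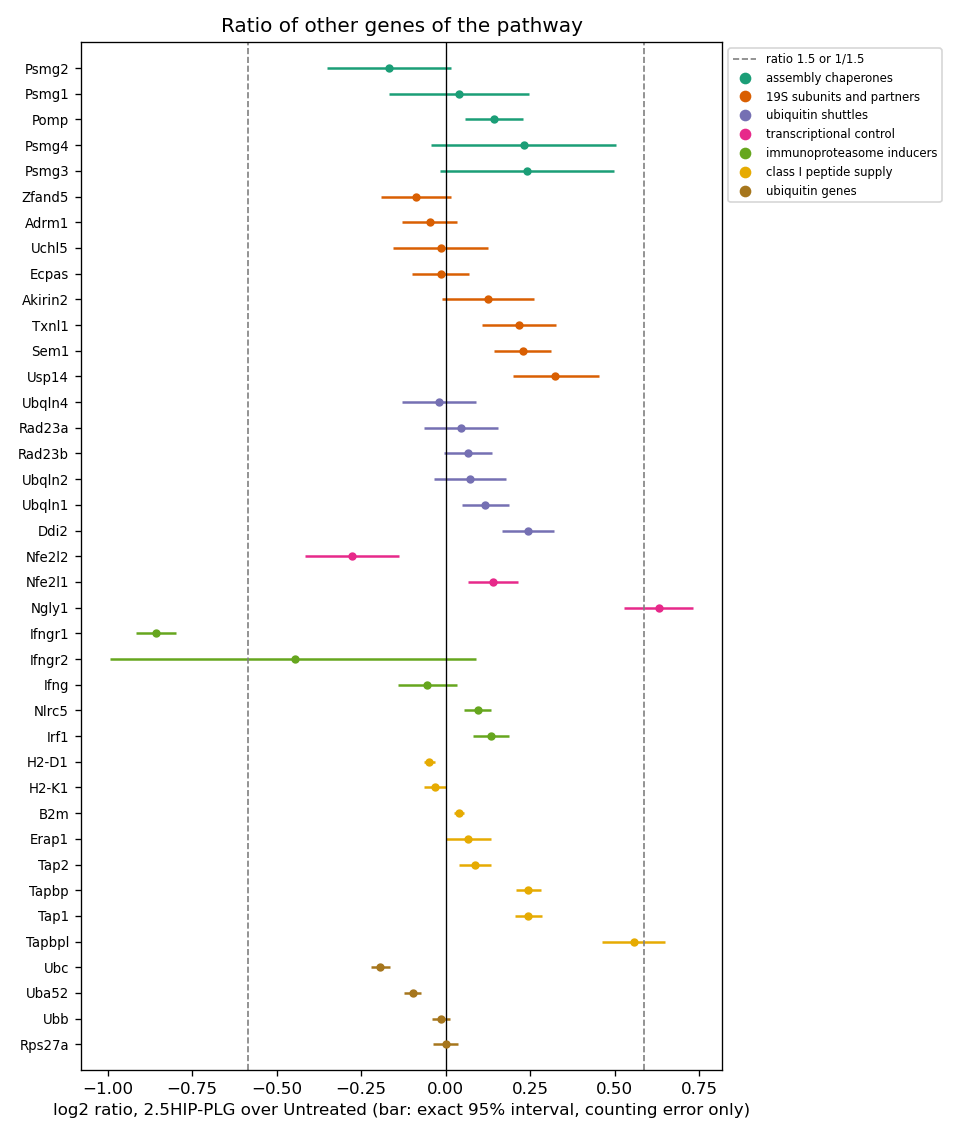
Log2 ratio of the 39 other pathway genes, 2.5HIP-PLG over untreated (x axis), grouped by role (y axis), with exact 95% intervals for counting error. Ngly1 and Ifngr1 lie beyond the dashed lines at a ratio of 1.5 and its inverse, and Tapbpl, with a ratio of 1.47, lies just inside.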

How the data were processed

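The authors deposited expected counts, in which a read that fits several genes is split between them, with STAR and RSEM 1.3.1 on GRCm38 named in the submitters' processing notes. Annotation, filters, strand use and the version of STAR were not stated in any source used here. Counts were rounded and scaled by library total. Of the 44 measured proteasome genes 27 had whole counts in both libraries. Ratios carry exact (Clopper-Pearson, conditional binomial) 95% intervals and shares exact binomial ones (Python 3.11.15, scipy 1.17.1). Reads without molecular identifiers are not independent molecules, so intervals and floors (3 counts) cover counting error only. Log2 ratios had 0.5 counts added. Exon lengths and coordinates came from GENCODE M21. The calculation was tested on simulated counts. Groups were taken from the treatment labels, because both samples carry the same injection protocol. The members, gene lists and size rule were chosen with earlier results of these data known. Genes named with full values were the 6 catalytic beta genes, Psme1, Psme2, the highest and lowest of each class, unmeasured and non-subunit members, and 6 pathway genes (Pomp, Psmg1, Adrm1, Nfe2l1, Tap1, Irf1) plus those called. A further gene was left out of the pathway list and its counts and is not reported here. Psmd2, Psmd5, Psmd12, Psma1, Psma7, Psmf1, Nfe2l2, Ifng, Ifngr2, Nlrc5, Tapbpl, the cell type markers and the intermediate members were added after their values were seen. The alternatives tried were edgeR 4.0.16 TMM, upper quartile and DESeq2 1.42.0 scaling, count minimums of 10, 100 and none, ratios of 1.2 and 2, a 99% interval, 2 counts added, unrounded counts, and pseudogene rows added.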

Additional observations from a re-analysis of the deposited data

How the results depend on the processing

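No paired analysis was possible because each group holds 1 library. Under TMM, upper quartile and DESeq2 scaling the median log2 ratio of the proteasome genes was 0.15, 0.12 and 0.15, and that of the abundant genes was 0.03, 0.002 and 0.03, as a scaling shifts all genes alike. The number of genes with an interval above 1 was 31, 26 and 31, and below 1 it was 3, 4 and 2. The interval of Psmf1, which held 1, lay above it under TMM (1.001 to 1.163) and DESeq2 (1.001 to 1.164). A size rule of 1.2 called 1 proteasome gene higher, Psmd10, and 3 pathway genes higher and 2 lower. A ratio of 2 called 0 pathway genes in either direction. With a 99% interval 1 gene, Psme2b, was below 1, and with whole counts only, a setting added after seeing the data that tests fewer genes, 17 of 27 were above. The other 139 recomputed summary values, and all 126 single-gene values, stayed within counting error or within 1.5 times the count. Of the single-gene values, 6 were pair levels by the longest coding transcript. Those could not move, since for the 6 catalytic genes that length equals the merged exon length. The 4 pseudogene rows held 0 counts, so values recomputed with these rows added could not move either. With 1 library per group, no setting speaks to differences between mice.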
